A study of Rattus norvegicus with 56 samples.

Results

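The potassium channel genes of the renal tubule described here, 8 of the 32883 gene identifiers measured, were followed in rat tubules after ureteral obstruction. They were Kcnj1, Kcnj10, Kcnj15, Kcnj16, Kcne1, Kcnq1, Kcnma1 and Kcnk1, a set named with earlier results of these data known. RNA came from cortical collecting duct (CCD) and cortical thick ascending limb (cTAL) dissected from kidneys of male Sprague-Dawley rats of 120 to 160 g, of no stated age. In the obstructed arm the left ureter was tied under anesthesia (unilateral ureteral obstruction, UUO), and in the sham arm it was exposed through the same incision and not tied. Both segments were taken at 30 min and at 3 h, in 4 numbered replicates per arm, with 2 libraries per number for CCD and 1 for cTAL, 48 libraries in all. The labels do not say which libraries share an animal, so p-values measure the spread between numbered samples, part of which may be technical. The 8 whole-kidney samples that the series also lists were not analysed here.

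As background, potassium channels let these cells move potassium across their membranes and hold the voltage that drives salt transport. In thick ascending limb, the apical channel ROMK (Kcnj1) returns potassium to the lumen so that the cotransporter NKCC2 (Slc12a1) can keep working. In the collecting duct, ROMK and the large-conductance BK channel (Kcnma1) secrete potassium, driven by sodium entry through the epithelial sodium channel ENaC. On the basolateral side, Kir5.1 (Kcnj16) forms a channel with Kir4.1 (Kcnj10) or Kir4.2 (Kcnj15) and cannot carry current well by itself. Kcnq1 is the pore of a voltage-gated channel for which Kcne1 is an accessory subunit, and Kcnk1 (TWIK-1) is a 2-pore channel.

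All values are TPM, transcript levels scaled for gene length and to a fixed total per library, so that levels of different genes within a library can be set side by side. TPM keep no record of sequencing depth, which is therefore unknown here. The 30 min and 3 h values came from separate tables, and levels are not compared between times. Between 8744 and 11916 genes reached 1 TPM in a 30 min library, and between 9585 and 10750 in a 3 h library. The lowest of these was library 2 of CCD UUO replicate 2 at 30 min. In sham, all 8 principal cell markers and all 11 intercalated cell markers were higher in CCD than in cTAL at both times, and all 8 thick ascending limb markers were lower. At 3 h 4 libraries carried a high level of the other segment's marker. They were CCD sham replicates 1 and 3 (library 1 of each, with 6941 and 7957 TPM of the thick limb gene Umod), CCD UUO replicate 4 (library 2, 18235 TPM) and cTAL sham replicate 1 (361 TPM of the collecting duct gene Aqp2). Summed red cell markers ranged from 25.4 to 1187 TPM in CCD sham and from 1494 to 7895 TPM in CCD UUO at 3 h. The dissected tissue is bulk RNA, in which fewer cells of a type and less RNA per cell cannot be told apart.

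Kcnj1, the gene that fell in both segments at 3 h, and Kcnj16, which was called higher in cTAL, are shown here by the 250 bases before their RefSeq transcription starts (rat build GRCr8). RefSeq lists a pair of starts for Kcnj1. Capitals mark matches, on either strand, to TATAAA (a core promoter box), CCAAT (a box bound by NF-Y), TGANTCA (the AP-1 site) or AGAACA (part of a steroid receptor site).
Kcnj1 start 1, chr8:39037742-39037991, plus strand: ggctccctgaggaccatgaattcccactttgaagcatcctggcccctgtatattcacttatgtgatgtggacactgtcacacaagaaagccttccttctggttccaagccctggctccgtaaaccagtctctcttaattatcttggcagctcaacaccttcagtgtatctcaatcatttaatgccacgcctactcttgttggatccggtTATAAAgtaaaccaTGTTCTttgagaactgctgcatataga
Kcnj1 start 2, chr8:39061391-39061640, plus strand: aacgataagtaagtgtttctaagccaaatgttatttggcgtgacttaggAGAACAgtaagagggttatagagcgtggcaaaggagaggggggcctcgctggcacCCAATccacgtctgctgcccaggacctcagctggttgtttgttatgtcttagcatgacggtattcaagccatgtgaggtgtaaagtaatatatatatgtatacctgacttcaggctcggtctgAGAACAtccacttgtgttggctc
Kcnj16, chr10:96517074-96517323, plus strand: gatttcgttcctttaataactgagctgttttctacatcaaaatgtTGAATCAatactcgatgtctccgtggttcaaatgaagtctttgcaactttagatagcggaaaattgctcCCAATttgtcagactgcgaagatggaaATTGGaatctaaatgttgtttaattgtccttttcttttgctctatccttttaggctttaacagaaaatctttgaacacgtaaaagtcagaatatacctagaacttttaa

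Start 1 of Kcnj1 held TATAAA 41 bases before the start and AGAACA, on the minus strand, 27 bases before it. Start 2 held CCAAT 146 bases and AGAACA 201 and 23 bases before the start. Kcnj16 held CCAAT on each strand, 136 and 109 bases before its start, and TGANTCA 205 bases before it. Among all 33469 windows of the same length in the RefSeq table, 12.9% held TATAAA, 34% CCAAT, 6.34% TGANTCA and 17.5% AGAACA. Of the 8 genes, 6 matched a window, and Kcnq1 and Kcnk1 did not. The same letters occurred in windows not shown. Kcne1 held TGANTCA 199 bases before its start, and Kcnj10 and Kcnj15 held CCAAT on each strand. A match describes these letters and is not evidence of a bound factor.

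In the sham tubules, Kcnj1 was high in both segments, other members were higher in CCD or in cTAL, and Kcnj15 was low in both. Kcnj1 was the most abundant of the 8 in both segments and at both times. At 30 min the 4 CCD sham replicates held 1087, 858, 782 and 1255 TPM of Kcnj1, and the 4 cTAL sham replicates held 1617, 1111, 1080 and 1244 TPM. The ranges overlapped, with one cTAL replicate above all others. At 3 h Kcnj1 stood at 737, 619, 804 and 444 TPM in CCD sham and at 699, 729, 887 and 739 TPM in cTAL sham, again overlapping. Segments were compared on CCD minus cTAL within each number with limma on log2(TPM + 1), adjusted by Benjamini-Hochberg over all genes tested. A gene is said to be called where the adjusted p was under 0.05, and SE is the standard error of the log2 value. In that fit, Kcnj1 was lower in CCD by a log2 difference of -0.37 (SE 0.11, adjusted p = 0.0233, n = 4 pairs) at 30 min. The call was lost when any of 3 of the 4 pairs was left out (replicate 1, 2 or 3), giving log2 differences of -0.30, -0.37 and -0.32, and under 4 other settings. These were no pairing (adjusted p = 0.12), no filter on low values (0.0774), no mean-variance trend (0.0653) and CCD library 2 alone (log2 difference -0.18, adjusted p = 0.157). At 3 h the log2 difference was -0.27 (95% interval -0.58 to 0.04, adjusted p = 0.142), and after median-of-ratios rescaling it was -0.59 (adjusted p = 0.0112).

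Of the 8 genes, 7 passed the filter on low values at 30 min (at least 1 TPM in at least 4 replicates), and all 7 of these were called, 4 higher and 3 lower in CCD. Kcne1 and Kcnma1 reached 1 TPM in CCD replicates alone, so they entered this count through the segment where they are high. The same holds for Kcne1 at 3 h. The count is therefore not a separate result about the set. Segment differences were common, with 54.9% of 11648 genes called, 41.7% higher in CCD and 13.2% lower. At 3 h, 5 passed the filter, of which 3 were called higher and 1 lower, beside 38.2% of 10521 genes called, 27.7% higher and 10.4% lower. The median gene was itself 0.3 higher in CCD at each time on the log2 scale, and this shift was 0 and 0.02 after median-of-ratios rescaling. The direction of the calls over all genes depended on the scaling. At 30 min 4859 genes were called higher in CCD and 1541 lower, against 3087 and 2774 after median-of-ratios rescaling and 2977 and 3017 after quantile normalization. At 3 h the counts were 2916 and 1099, against 1568 and 1772 or 1605 and 1641.

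Kcne1 and Kcnq1, the accessory and pore subunits, were higher in CCD than in cTAL. Kcne1 stood at 595, 508, 498 and 846 TPM in CCD sham at 30 min and was listed at 0 in all 4 cTAL sham libraries. At 3 h it was 323, 296, 475 and 556 TPM in CCD, against 0, 0, 0.82 and 0 TPM in cTAL. No cTAL replicate came near the lowest CCD replicate at either time. The log2 differences were 9.21 (SE 0.16, adjusted p = 2.83e-07) and 8.40 (SE 0.22, adjusted p = 1.97e-05), and no fold is given against values at 0.

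Kcnq1 was present in both segments at different levels. CCD sham held 96.1, 108, 115 and 145 TPM of Kcnq1 at 30 min, and cTAL sham held 10.7, 12.2, 22.3 and 31.0 TPM. At 3 h the values were 72.7, 75.9, 85.1 and 67.9 TPM in CCD and 11.6, 28.2, 25.7 and 6.94 TPM in cTAL. The segments did not overlap at either time. The share of all genes without overlap between segments is not given here, for this gene or those below. Segment differences were common, with 54.9% of all genes called at 30 min and 38.2% at 3 h. A lack of overlap is therefore only a description of the values. The difference was 6.23-fold at 30 min (log2 difference 2.64, SE 0.17, adjusted p = 3.58e-05) and 4.48-fold at 3 h (log2 difference 2.16, SE 0.29, adjusted p = 0.00197). Kcne1 exceeded its pore partner in CCD, with means of 612 ± 162 against 116 ± 21.1 TPM (SD, n = 4) at 30 min and 412 ± 124 against 75.4 ± 7.25 TPM at 3 h. In cTAL sham the order was the reverse.

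Kcnk1, the 2-pore channel, was also higher in CCD. At 30 min it was 140, 166, 208 and 176 TPM in CCD sham and 48.2, 42.5, 80.9 and 86.0 TPM in cTAL sham. At 3 h it was 269, 257, 219 and 176 TPM in CCD and 101, 94.2, 89.0 and 28.1 TPM in cTAL. The segments did not overlap, and the differences were 2.7-fold (log2 difference 1.43, SE 0.14, adjusted p = 2.25e-04) and 3.16-fold (log2 difference 1.66, SE 0.23, adjusted p = 0.00233). Kcnma1, the pore of the BK channel, was low in both segments. CCD sham held 2.23, 3.26, 1.48 and 3.13 TPM at 30 min and cTAL sham 0.1, 0.26, 0.08 and 0.25 TPM, with no overlap (log2 difference 1.53, SE 0.16, adjusted p = 2.28e-04). At 3 h Kcnma1 lay between 0.395 and 1.12 TPM in the CCD sham replicates and at 0 in 3 of the 4 cTAL sham libraries, below the filter.

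Kcnj16, the Kir5.1 subunit, was higher in cTAL than in CCD at both times. At 30 min cTAL sham held 253, 166, 169 and 174 TPM, and CCD sham held 45.0, 18.2, 22.0 and 25.5 TPM. At 3 h the values were 88.5, 75.7, 102 and 83.7 TPM in cTAL and 39.2, 18.7, 30.8 and 16.3 TPM in CCD. The segments did not overlap. Kcnj16 was 7.09-fold lower in CCD at 30 min (log2 difference -2.83, SE 0.12, adjusted p = 6.47e-06) and 3.52-fold lower at 3 h (log2 difference -1.82, SE 0.18, adjusted p = 6.21e-04). With the 4 mixed 3 h libraries left out, Kcnj16 was still called lower in CCD at 3 h (adjusted p = 0.00193).

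The partners of Kcnj16 were far less abundant. Kcnj10 was 3.57, 1.99, 1.73 and 3.91 TPM in cTAL sham at 30 min and 1.36, 0.37, 0.59 and 1.22 TPM in CCD sham, and CCD was lower with no overlap (log2 difference -1.02, SE 0.15, adjusted p = 0.0011). At 3 h Kcnj10 lay at or below 0.26 TPM in every sham replicate of both segments. Kcnj15 was between 0 and 1.2 TPM in every sham replicate at 30 min. At 3 h it was at 0 in all 4 cTAL sham libraries and between 0 and 0.435 TPM in the CCD sham replicates. In cTAL sham, the mean of Kcnj16 was 190 ± 41.7 TPM at 30 min, beside 2.80 ± 1.10 TPM of Kcnj10 and 0.537 ± 0.389 TPM of Kcnj15.

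**Figure D1:**
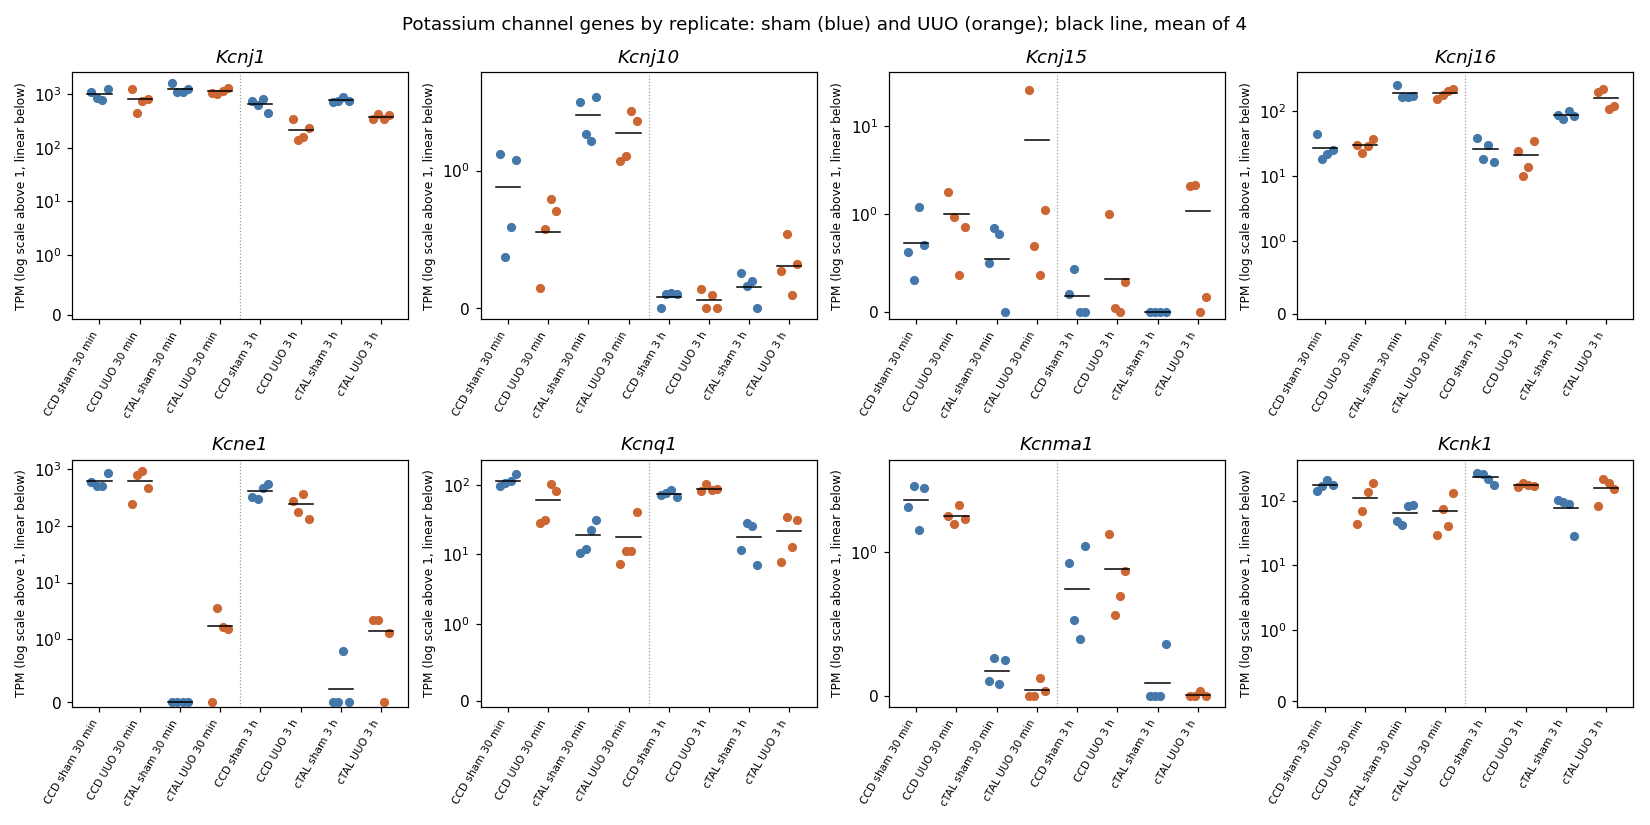
TPM of the 8 genes (y axis, logarithmic above 1 TPM and linear below) in each group (x axis), with 1 point per replicate, sham in blue, UUO in orange and a black line at the mean of 4. The dotted line separates the 30 min and 3 h tables, which are not compared. At 3 h the 4 UUO points of Kcnj1 lie below the 4 sham points in both segments, and those of Kcnj16 lie above the sham points in cTAL.

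**Figure D2:**
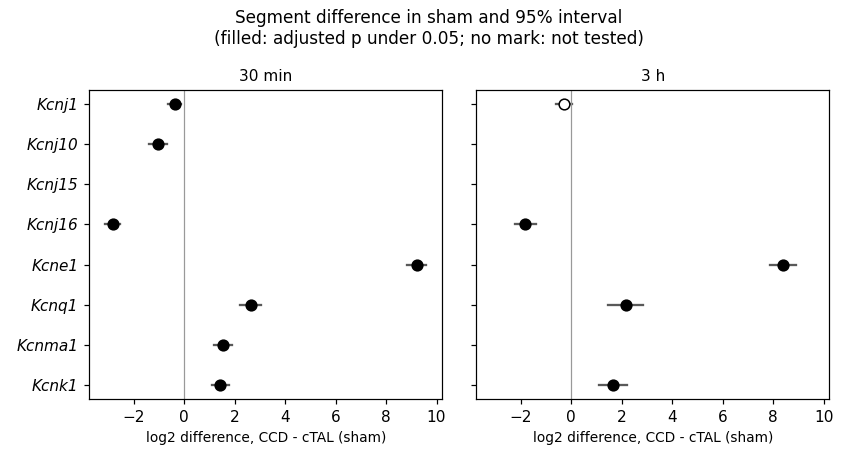
Log2 difference between CCD and cTAL in sham (x axis, log2(TPM + 1) scale) with its 95% interval for each gene that passed the filter, at 30 min (left) and 3 h (right). Filled circles are called at an adjusted p under 0.05. Kcne1, Kcnq1 and Kcnk1 lie to the right (CCD) and Kcnj16 to the left (cTAL) at both times.

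After 3 h of obstruction, Kcnj1 fell in both segments. The CCD replicates held 737, 619, 804 and 444 TPM in sham and 337, 138, 161 and 236 TPM in UUO. The arms did not overlap, a pattern that 14.6% of all genes tested showed in the lower direction. Among single CCD libraries, Kcnj1 ranged from 425 to 946 TPM with a median of 619 in the 8 sham libraries, and from 110 to 370 TPM with a median of 173.5 in the 8 UUO libraries. The fall was 3.12-fold (log2 change -1.64, SE 0.28, 95% interval -2.26 to -1.02, adjusted p = 0.00973, limma, n = 4 per arm). It was called under all 11 other settings tried and in all 8 fits that left out 1 replicate, with an adjusted p of at most 0.0472. Of the 8 genes, 5 passed the filter in CCD at 3 h and Kcnj1 alone was called, beside 13% of 10530 genes called (8.04% lower, 5% higher) and a median change over all genes of -0.14. The excess of lower calls over all genes depended on the scaling, with 526 higher and 847 lower here, 701 and 455 after median-of-ratios rescaling and 646 and 655 after quantile normalization.

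In cTAL, Kcnj1 was 699, 729, 887 and 739 TPM in sham and 344, 424, 338 and 411 TPM in UUO at 3 h. The arms were again apart, as were 14.1% of all genes tested in this direction. The fall was 2.01-fold (log2 change -1.01, SE 0.12, 95% interval -1.27 to -0.74, adjusted p = 0.00152), and it was called under all 8 other settings and in all 8 fits without 1 replicate. Of the 8 genes, 4 passed the filter in cTAL at 3 h and 2 were called, 1 lower and 1 higher. The share of all genes called was 11.7% of 10023, with 7.64% lower and 4.06% higher, and the median change was -0.12. In counts, 407 genes were higher and 766 lower, against 493 and 410 after median-of-ratios rescaling and 465 and 597 after quantile normalization.

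The gene called higher was Kcnj16. It stood at 88.5, 75.7, 102 and 83.7 TPM in cTAL sham and at 200, 222, 109 and 120 TPM in cTAL UUO. The arms did not overlap, as for 5.68% of all genes tested in this direction, although UUO replicate 3 lay close to the highest sham replicate, and UUO replicates 1 and 2 were well above the other two. The rise was 1.78-fold (log2 change 0.83, SE 0.23, 95% interval 0.31 to 1.35, adjusted p = 0.0466). This call sat at the threshold. It was lost when any replicate other than UUO replicate 3 was left out (7 of 8 fits, with log2 changes of 0.66 to 0.95) and under 5 other settings. Over all fits, with those that kept the call, the adjusted p lay between 0.0268 and 0.119. In CCD, Kcnj16 was 39.2, 18.7, 30.8 and 16.3 TPM in sham and 24.5, 10.1, 14.0 and 35.3 TPM in UUO, overlapping (log2 change -0.45, 95% interval -1.25 to 0.36, adjusted p = 0.436). Library 2 of UUO replicate 4, with 18235 TPM of Umod, held 56.45 TPM of Kcnj16, against 14.09 TPM in library 1. Library 1 of sham replicate 1, with 6941 TPM of Umod, held 57.33 TPM, against 21.08 TPM in library 2. For sham replicate 3, also mixed, the libraries held 32.12 and 29.56 TPM. The part of thick limb RNA in these values was not tested. Over all settings the CCD log2 change ranged from -1.12 to 0.23.

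The partners of Kcnj16 stayed near 0 at 3 h. Kcnj10 was at most 0.54 TPM in every UUO replicate of either segment. Kcnj15 was 2.06, 2.12, 0 and 0.15 TPM in cTAL UUO and 1.01, 0.04, 0 and 0.3 TPM in CCD UUO. Neither passed the filter. Kcnj15 is also a gene of the proximal tubule. Summed markers of that tubule (9 genes) were 867, 497, 216 and 497 TPM in the same cTAL UUO replicates and 6.74 to 180 TPM in cTAL sham, and their part in the Kcnj15 values was not tested.

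Kcnk1 in cTAL was 101, 94.2, 89.0 and 28.1 TPM in sham and 80.9, 213, 190 and 152 TPM in UUO at 3 h. UUO replicate 1 lay within the sham range and the other 3 lay above it. The log2 change was 1.08 (SE 0.42, 95% interval 0.15 to 2.02) and was not called (adjusted p = 0.122). In CCD, Kcnk1 was 269, 257, 219 and 176 TPM in sham and 160, 190, 175 and 170 TPM in UUO, overlapping at the low end (log2 change -0.37, 95% interval -0.68 to -0.06, adjusted p = 0.108).

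Kcne1 in CCD was 323, 296, 475 and 556 TPM in sham and 279, 176, 366 and 133 TPM in UUO at 3 h. The arms overlapped through UUO replicate 3, and the log2 change of -0.87 (SE 0.33, 95% interval -1.61 to -0.13) was not called (adjusted p = 0.108). It was called, at an adjusted p of 0.0421, when UUO replicate 3 was left out (log2 change -1.13). Its partner Kcnq1 was 72.7, 75.9, 85.1 and 67.9 TPM in sham and 81.6, 102, 84.6 and 88.4 TPM in UUO. These values overlapped narrowly, and the log2 change was 0.26 (SE 0.11, adjusted p = 0.16).

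In cTAL at 3 h, Kcnq1 was 11.6, 28.2, 25.7 and 6.94 TPM in sham and 7.70, 34.7, 13.0 and 31.9 TPM in UUO, with wide overlap (log2 change 0.22, 95% interval -0.99 to 1.42, adjusted p = 0.838). Kcne1 was listed at 0 in 3 of 4 sham libraries and at 2.14, 2.18, 0 and 1.3 TPM in UUO. Kcnma1 was at most 0.36 TPM in every cTAL replicate. In CCD it was 0.925, 0.53, 0.395 and 1.12 TPM in sham and 1.40, 0.56, 0.695 and 0.87 TPM in UUO, and it did not pass the filter.

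**Figure D3:**
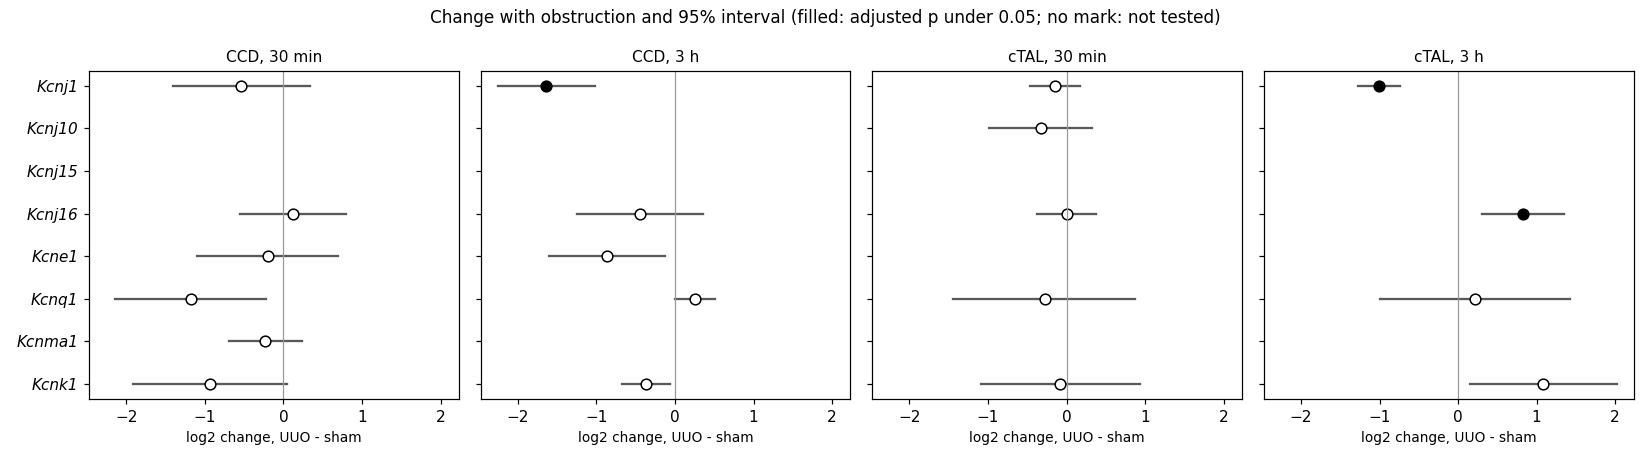
Log2 change from sham to UUO (x axis, log2(TPM + 1) scale) with its 95% interval for each gene that passed the filter, in CCD and cTAL at 30 min and 3 h. Filled circles are called at an adjusted p under 0.05. No gene is filled at 30 min, Kcnj1 is filled at 3 h in both segments, and Kcnj16 is filled to the right in cTAL at 3 h.

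At 30 min no member was called in either segment. In CCD, 6 of the 8 genes passed the filter, beside 3 of 11369 genes called (0.0264%). In cTAL, 5 passed it, beside 1 of 10993 genes called (0.0091%). Kcnj1 in CCD UUO was 1225, 446, 733 and 799 TPM, and the sham values of 1087, 858, 782 and 1255 TPM overlapped these (log2 change -0.54, 95% interval -1.41 to 0.34, adjusted p = 0.436). The low value came from replicate 2, whose libraries held 800 and 92.6 TPM. With library 1 alone for that replicate the log2 change was -0.15 (adjusted p = 0.705). In cTAL, UUO held 1059, 1012, 1160 and 1274 TPM of Kcnj1, within and just below the sham range (log2 change -0.15, 95% interval -0.47 to 0.17, adjusted p = 1).

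Kcnq1 had the largest early difference among the tested members. CCD sham held 96.1, 108, 115 and 145 TPM and CCD UUO 28.8, 31.1, 102 and 83.0 TPM. UUO replicates 1 and 2 lay far below all sham replicates, and replicate 3 lay within their range. The log2 change was -1.18 (SE 0.43, 95% interval -2.15 to -0.22) and was not called (adjusted p = 0.28, and 0.098 with the replicate number as a block). The libraries of UUO replicate 2 held 50.76 and 11.52 TPM. With library 1 alone for that replicate the log2 change was -0.93 (adjusted p = 0.241). The median change of all genes in this comparison was -0.31, and -0.02 after median-of-ratios rescaling.

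Kcnk1 showed the same pair of low replicates, with 140, 166, 208 and 176 TPM in CCD sham and 42.9, 69.1, 135 and 188 TPM in CCD UUO (log2 change -0.94, 95% interval -1.91 to 0.04, adjusted p = 0.328). The libraries of UUO replicate 2 held 106.5 and 31.61 TPM of Kcnk1. With library 1 alone for that replicate the log2 change was -0.72 (adjusted p = 0.383). Kcne1 in CCD UUO was 243, 802, 923 and 468 TPM, reaching both below and above sham (log2 change -0.20, 95% interval -1.10 to 0.70, adjusted p = 0.748). Kcnj16 was 30.1, 23.2, 29.4 and 36.9 TPM in CCD UUO (log2 change 0.12, adjusted p = 0.809). Kcnma1 was 1.90, 1.64, 2.33 and 1.80 TPM there (log2 change -0.23, adjusted p = 0.504). Both lay within their sham ranges.

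In cTAL at 30 min, Kcnj16 was 156, 178, 203 and 219 TPM in UUO, beside 253, 166, 169 and 174 TPM in sham (95% interval of the log2 change -0.38 to 0.37, adjusted p = 1). Kcnj10 was 1.2, 1.32, 3.03 and 2.52 TPM in UUO, overlapping sham (log2 change -0.33, 95% interval -0.99 to 0.32, adjusted p = 1). Kcnq1 was 7.41, 11.4, 11.1 and 40.6 TPM and Kcnk1 29.0, 74.2, 39.9 and 132 TPM in the 4 UUO replicates, with log2 changes of -0.28 and -0.08 (adjusted p = 1 for each). Replicate 4 was the highest of the 4 for both genes. Kcne1, at 0 in every sham library, was listed at 0, 3.56, 1.67 and 1.49 TPM in UUO and did not pass the filter. Aqp2 in the same group averaged 7.39 ± 5.60 TPM, against 0.677 ± 0.825 TPM in sham, and the part of collecting duct RNA in the Kcne1 values was not tested.

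The change in CCD was set against the change in cTAL within numbers. At 30 min no gene was called out of 12343, a share of 0%. Kcne1 had the smallest adjusted p of the members at 30 min, with a difference of -1.43 (95% interval -2.05 to -0.81, adjusted p = 0.0596). At 3 h its difference was -1.79 (adjusted p = 0.186). The log2 change of Kcne1 in CCD at 30 min was -0.20, and its cTAL replicates lay between 0 and 3.56 TPM. Kcne1 thus passed the filter through CCD, where it is high, and these differences rest in part on values near 0. At 3 h 1.08% of 11515 genes were called, and none was a member. The 3 h difference for Kcnj1 was -0.63 (95% interval -1.29 to 0.03, adjusted p = 0.372), so that a larger fall in CCD was not shown. For Kcnj16 it was -1.27 (95% interval -2.23 to -0.31, adjusted p = 0.214), and it ranged from -1.95 to -0.6 over all settings. For Kcnk1 it was -1.45 (95% interval -2.20 to -0.71, adjusted p = 0.075), with a log2 change of -0.37 in CCD and 1.08 in cTAL. This last difference was called with CCD library 1 alone (-1.66) and without UUO replicate 1 (-1.71), with adjusted p from 0.0455 to 0.235 over all settings.

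The change at 3 h was also set against the change at 30 min. Each change lies within 1 table, and a difference between times cannot be told apart from one between the tables. In cTAL the difference for Kcnj1 was -0.86 (SE 0.18, 95% interval -1.25 to -0.47, adjusted p = 0.0223), the 1 member called, beside 2.28% of 11765 genes called and 1.36% called lower. Over all genes 108 were called higher and 160 lower, against 158 and 134 after median-of-ratios rescaling. The call was lost without sham replicate 2 or 3 at 30 min (-0.8 and -0.79), without sham replicate 3 at 3 h (-0.78) and without the mean-variance trend, with adjusted p up to 0.0621. In CCD the Kcnj1 difference was -1.11 (SE 0.52, 95% interval -2.21 to 0, adjusted p = 0.304) and no member was called, beside 1.54% of 11959 genes. With library 1 alone for CCD UUO replicate 2 at 30 min it was -1.49 (adjusted p = 0.0474). The Kcnj16 and Kcnk1 differences in cTAL were 0.83 (adjusted p = 0.176) and 1.16 (adjusted p = 0.441), and the Kcnq1 difference in CCD was 1.44 (adjusted p = 0.155). The last was 1.78 (adjusted p = 0.0382) without UUO replicate 3 at 30 min.

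The make-up of the channel transcripts is described here as each gene's share of the summed TPM of the 8 genes. Kcnj1 in cTAL at 3 h made up 80.7% ± 3.79 (SD, n = 4) of the sum in sham and 52.7% ± 4.27 in UUO. Kcnj16 went from 9.25% ± 0.772 to 22.4% ± 7.05, and Kcnk1 from 8.17% ± 3.51 to 21.7% ± 6.87. In CCD at 3 h, Kcnj1 made up 46.2% ± 7.42 in sham and 29.0% ± 9.09 in UUO, and Kcnq1 5.42% ± 0.404 and 12.4% ± 3.25. Kcne1 made up 29.8% ± 10.01 and 31.5% ± 10.6. At 30 min Kcnj1 made up 81.9% ± 1.90 and 80.0% ± 2.96 of the cTAL sum in sham and UUO, and 51.5% ± 2.96 and 49.8% ± 20.2 of the CCD sum. Shares of a fixed sum are not independent of each other and were not tested.

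**Figure D4:**
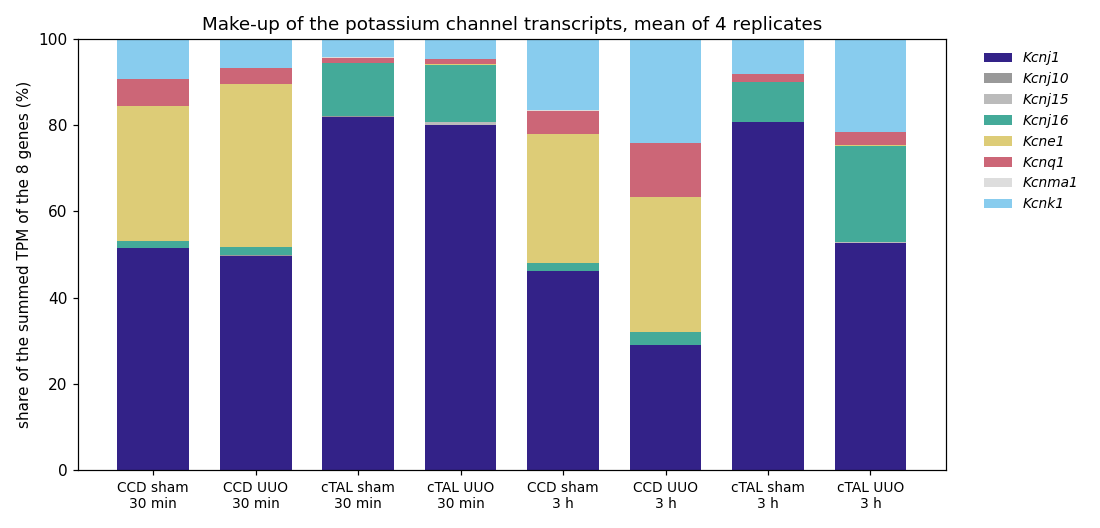
Share of the summed TPM of the 8 genes (y axis, percent, mean of 4 replicates) taken by each gene in each group (x axis). Kcnj1 takes 80.7% of the cTAL sham bar at 3 h and 52.7% of the cTAL UUO bar, where Kcnj16 and Kcnk1 take 22.4% and 21.7%.

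Kcnj1 was also set against the gene that marks each segment, as the within-replicate difference in log2(TPM + 1), among 8 such ratios tested by a two-sided exact permutation test. With 4 replicates per arm the smallest possible p is 0.0286. In cTAL at 3 h, Kcnj1 relative to Slc12a1 was lower in UUO by a log2 ratio of -1.06 (exact p = 0.0286, adjusted p = 0.114), from 1.06 ± 0.236 in sham to 0.00541 ± 0.567 in UUO. Slc12a1 itself averaged 370 ± 79.6 TPM in sham and 405 ± 192 TPM in UUO. In CCD at 3 h, Kcnj1 relative to Aqp2 differed by -0.40 (exact p = 0.371), while Aqp2 fell from 10204 ± 754 to 4533 ± 1207 TPM (log2 change -1.24, adjusted p = 0.00782, limma). At 30 min the 2 ratios differed by 0.01 in cTAL and 0.25 in CCD (exact p = 0.943 and 0.743).

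The ratio of Kcnj10 to its partner Kcnj16 in cTAL at 3 h was lower in UUO by -0.65 (exact p = 0.0286, adjusted p = 0.114). In the other 3 comparisons it differed by -0.37, 0.42 and -0.33 (exact p = 0.229, 0.429 and 0.171). At Kcnj10 levels under 1 TPM, this ratio mostly follows Kcnj16. With a pseudocount of 0.1 in place of 1, the difference in cTAL at 3 h was -0.13. A change in the balance of the subunits was therefore not shown.

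Markers of the cells in which these genes work, and of neighbouring cells, were measured in the same libraries. Their counts at 3 h stand beside 5% of all genes called higher and 8.04% lower in CCD, and 4.06% and 7.64% in cTAL. In CCD at 3 h, the summed TPM of 8 principal cell markers ranged from 15907 to 18653 in sham and from 5503 to 10052 in UUO, and 5 of the 8 fell. Of 11 intercalated cell markers, 1 fell, and their sum averaged 11165 ± 1948 TPM in sham and 9909 ± 1752 TPM in UUO. In cTAL at 3 h, 2 of 8 thick ascending limb markers fell, and the sum averaged 45412 ± 11877 and 34987 ± 2099 TPM. Macrophage markers fell in cTAL (4 of 7 tested, from 1060 ± 303 to 355 ± 150 TPM summed) and rose in CCD (4 of 7, from 139 ± 63.1 to 234 ± 43.5 TPM), and proximal tubule markers rose in both (4 of 7 each). Of 5 endothelial markers tested in cTAL 3 fell (Cdh5, Emcn and Egfl7, with a median of -1.55 over the 5), and the summed level of the list was 205 ± 132 TPM in sham and 66.2 ± 17.6 TPM in UUO. In CCD none of 3 endothelial markers tested was called. The 8 markers of distal convoluted and connecting tubule summed to 304 ± 299 TPM in cTAL sham and 579 ± 241 TPM in cTAL UUO, with none of 4 tested called. In CCD they summed to 622 ± 258 and 828 ± 565 TPM, and 1 of 3 tested rose (Klk1, log2 change 1.42, adjusted p = 0.0184). Pvalb, a marker of distal convoluted tubule, was listed at 0 in every group. At 30 min this list summed to 5243 TPM in CCD sham replicate 1, against 322 to 725 TPM in the other CCD sham replicates. Without sham replicate 1, 6 of 7 members were called between segments at 30 min instead of 7, the exception being Kcnj1, and no member was called between CCD sham and UUO. The part of any of these in the Kcnj1 and Kcnj16 values was not tested.

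Among 13 genes that work beside potassium secretion in the collecting duct, 11 were tested in CCD at 3 h. Of these 1 rose and 3 fell, beside 5% of all genes called higher and 8.04% lower. Their median log2 change was -0.18 beside -0.14 for all genes. The ENaC subunits Scnn1b and Scnn1g fell 1.66-fold each (adjusted p = 0.0387 and 0.0433). The mineralocorticoid receptor Nr3c2 fell 3.07-fold, from 7.03 ± 0.777 to 1.72 ± 0.689 TPM (adjusted p = 0.00622). The steroid-induced gene Tsc22d3 rose 1.90-fold (adjusted p = 0.0265). Of 11 tested in cTAL at 3 h 5 rose and none fell, beside 4.06% of all genes called higher and 7.64% lower. The median of the 11 was 0.97 beside -0.12 for all genes. The risers included the kinase Sgk1, which rose 6.25-fold from 68.5 ± 36.3 to 389 ± 40.8 TPM (adjusted p = 0.00199). Tsc22d3 rose 7.83-fold there (adjusted p = 0.00113), and the sodium pump subunit Atp1b1 rose 2.23-fold (adjusted p = 0.0231). The proton-potassium pump subunit Atp12a rose from 1.27 ± 1.07 to 6.16 ± 2.45 TPM (adjusted p = 0.0231).

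Among 12 genes of thick ascending limb salt transport, all tested, 1 rose and 2 fell in cTAL at 3 h, with a median of -0.18 beside -0.12 for all genes. These counts rest on 1 and 2 of 12 genes, beside 4.06% of all genes called higher and 7.64% called lower. The riser was Atp1b1, and the genes that fell were the claudin Cldn10 (log2 change -0.49, adjusted p = 0.0184) and the calcium-sensing receptor Casr (log2 change -1.18, adjusted p = 0.0198). In CCD at 3 h 1 of the 12 fell, beside 8.04% of all genes called lower. It was the chloride channel subunit Bsnd, from 273 ± 43.99 to 165 ± 30.7 TPM (adjusted p = 0.0184). Of 20 symbols for regulators of renal potassium channels, 17 matched. Of these 12 were tested in cTAL at 3 h, 3 rose and 1 fell, with a median of -0.15 beside the same -0.12. The risers were Sgk1, the scaffold Slc9a3r1 (log2 change 1.09, adjusted p = 0.00908) and the ubiquitin ligase Nedd4l (log2 change 1.01, adjusted p = 0.0444). The kinase Wnk1 fell, from 34.5 ± 6.26 to 15.4 ± 2.33 TPM (adjusted p = 0.0118). In CCD at 3 h none of 14 was called, and at 30 min none was called from any of these lists in either segment. None of the 8 listed accessory subunits and partners of the BK channel, a list without its pore gene Kcnma1, passed the filter in any of the 4 comparisons.

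Beyond the 8, the tables hold 84 other genes whose symbols begin with Kcn, of which 5 averaged at least 5 TPM in some group: Kcnip4, Kcnj13, Kcnj5, Kcns3 and Kcnt1. At 30 min 7 were tested in CCD and 9 in cTAL, and none was called. At 3 h 1 of 5 tested fell in CCD and 2 of 7 fell in cTAL, and none rose, beside 8.04% and 7.64% of all genes called lower. These shares rest on 1 and 2 genes. Kcnj13 (Kir7.1), another inward rectifier, fell in both segments, as Kcnj1 did. It went from 137 ± 23.6 to 76.0 ± 20.7 TPM in CCD and from 73.4 ± 25.1 to 23.6 ± 1.72 TPM in cTAL, that is by -0.88 (adjusted p = 0.0236) and -1.54 (adjusted p = 0.00515) on the log2 scale. The other was Kcnn4, a calcium-activated channel (log2 change -1.2, adjusted p = 0.0225). Kcnn4 averaged 1.603 ± 0.6612 TPM in cTAL sham and 0.1325 ± 0.265 TPM in cTAL UUO at 3 h. It thus passed the filter through the sham arm, where it is higher, and its call rests in part on values near 0.

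By the root mean square difference of centred log2(TPM + 1) over the 32 replicates, the genes with patterns most like Kcnj1, among 8488 candidates, were Cdca7l (0.31), Klhl7 (0.34) and Tmtc4 (0.35). For Kcnj16 they were Eva1a (0.34), Cgnl1 (0.40) and Tmem72 (0.42). For Kcne1 the nearest were Slc26a4, Scnn1g and Hepacam2, at 0.76 each, and for Kcnq1 Mpzl1 (0.43), Akirin1 (0.46) and Mbp (0.47). Kcnk1 lay nearest to Strap (0.24), Vamp2 (0.25) and Tm9sf2 (0.26). Kcnj15 lay nearest to Slc5a12 (0.28), Ces2g (0.37) and Slc4a4 (0.37). Kcnj10 and Kcnma1, which vary little on this scale, were nearest to Gng12 (0.27) and Dmxl1 (0.25). Small values among low or steady genes say mostly that neither gene varied.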

How the data were processed

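Per the labels' protocols, a SMARTer V4 kit was used for cDNA and Nextera XT for the libraries. Strand was not stated, so antisense reads cannot be told apart from those of the gene. The authors deposited TPM per gene, with a separate table for each time, and the submitters' processing notes name STAR 2.7.3, RSEM 1.3.3 and Rnor_6.0. Genes were matched between tables by Ensembl identifier.

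Values were taken as log2(TPM + 1), and both CCD libraries of a number were averaged after that step. Genes that reached 1 TPM in 4 or more replicates were tested with limma 3.58.1 (R 4.3.3, mean-variance trend), with Benjamini-Hochberg adjustment over all genes tested, checked on simulated data. Log2 changes understate those of low genes. Segments were compared within replicate numbers, taken as animals from the titles. Deviations of same-numbered CCD and cTAL samples correlated at 0.27 to 0.39 in sham at 30 min and 0.06 to 0.21 at 3 h. For sham and UUO of the same number they correlated at 0.12 to 0.23 in CCD and -0.23 to 0.18 in cTAL at 30 min. At 3 h these correlations were -0.22 to 0.12 in CCD and -0.12 to 0.05 in cTAL. Alternatives were another pseudocount, filters, rescalings, no trend, the replicate block, single CCD libraries, libraries left out and each replicate left out. Figures used matplotlib 3.10.9.

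Members and lists were chosen with earlier results of these data known. The text names every member, up to 4 called genes per list and comparison by smallest p, called other Kcn genes, and the 3 nearest genes to a member.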

Additional observations from a re-analysis of the deposited data

Results flagged for a closer look

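Of 50 groups of 4 replicates checked, 4 held a replicate whose gap to the nearest other took nearly the whole range of the group. Chance alone flags about 1 in 20 groups. Kcnj16 in cTAL sham at 30 min was 253 TPM in replicate 1, against 166 to 174 TPM in the others, and without it the log2 change with UUO was 0.14. Kcnj15 in cTAL UUO at 30 min was 25.8 TPM in replicate 1, against 0.37 to 1.11 TPM in the others. The summed proximal tubule markers of that replicate were 1043 TPM, against 74.4 to 147 TPM in the others, and their part in the Kcnj15 value was not tested. Kcnq1 in cTAL UUO at 30 min was 40.6 TPM in replicate 4, against 7.41 to 11.4 TPM in the others. Kcnk1 in cTAL sham at 3 h was 28.1 TPM in replicate 4, against 89.0 to 101 TPM in the others.

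The change of Kcnj1 with obstruction in cTAL differed between times, by -0.86 on the log2 scale (adjusted p = 0.0223, limma). The change itself was -0.15 at 30 min and -1.01 at 3 h. The arms did not overlap at 3 h, as for 14.1% of all genes tested in this direction. The call of the time difference was lost in 3 of 16 fits without 1 replicate and without the mean-variance trend. Time cannot be told apart from the table.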

How the results depend on the processing

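Depth is unknown, so no detection limit can be given for genes listed at 0. Kcnj1 at 3 h stayed called in both segments under every setting and every fit without 1 replicate. Fits without 1 replicate used a filter of 3 replicates in place of 4.

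With the replicate block, 1 member was called in cTAL at 3 h instead of 2 (Kcnj16 at an adjusted p of 0.0886), as also with a pseudocount of 0.1, no filter, no trend or the mixed 3 h libraries left out. The block gave 770 genes instead of 1373 in CCD at 3 h and 580 instead of 1173 in cTAL. It changed no other member's call between sham and UUO. Over fits without 1 replicate, members called ranged from 1 to 2 in CCD and 1 to 3 in cTAL at 3 h, from 0 to 3 and 0 to 1 for the segment difference in response at 30 min and 3 h, and from 0 to 1 for the time difference in each segment. With CCD library 1 alone, 1 member instead of 0 was called for the segment difference at 30 min, for that at 3 h and for the time difference in CCD. The same count of 1 came from averaging TPM (segment difference, 30 min) and from library 1 for UUO replicate 2 (time difference, CCD). No trend gave 0 instead of 1 for the time difference in cTAL.

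Signs turned for changes that were not called. In CCD at 30 min they were Kcnj1 (0.01, library 1), Kcnj16 (-0.21, library 2; -0.05 to 0.37 without 1 replicate), Kcne1 (0.17 rescaled; 0.04, library 2; -0.48 to 0.21 without 1 replicate) and Kcnma1 (0.02 rescaled, 0.15 quantile). In cTAL at 30 min Kcnj16 reached 0.09 rescaled, 0.03 quantile and -0.08 to 0.14 without 1 replicate, and Kcnk1 0.01 rescaled and -0.47 to 0.25. At 3 h they were Kcnj16 in CCD (0.23, library 2), Kcnq1 in CCD (-0.01, library 1) and Kcnq1 in cTAL (-0.14 to 0.60 without 1 replicate). The segment difference at 30 min turned for Kcnj1 (0.16, library 1; 0 with UUO replicate 2 from library 1) and Kcnj16 (-0.21, library 2), and the CCD time difference for Kcnj16 (0.44, library 2). With library 2, Kcnj10 to Kcnj16 in CCD at 3 h was -0.11, and Kcnj1 to Aqp2 -0.05 at 30 min and 0.02 at 3 h. Without 1 replicate, Kcnj1 to Aqp2 at 30 min ranged from -0.33 to 0.71 and Kcnj1 to Slc12a1 from -0.06 to 0.11. The causes were not tested.

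Counts over all genes moved by more than 1.5 times as follows. In CCD at 30 min, 3 genes became 956 with library 1, 1 with library 2, 37 with averaged TPM and 1 with means of 5 TPM or more. In CCD at 3 h, 1373 became 852 with no filter, 676 with library 1 and 490 with library 2. In cTAL at 3 h, 1173 became 760 with no filter and 746 without the mixed libraries. The segment difference at 30 min went from 0 to 69 (no trend), 808 (library 1), 336 (averaged TPM) and 143 (UUO replicate 2 from library 1). At 3 h it went from 124 to 71 (pseudocount 0.1), 20 (no filter), 43 (no trend) and 56 (library 2). The CCD time difference went from 184 to 85 (pseudocount 0.1), 35 (no filter), 108 (means of 5 TPM or more), 26 (library 2), 277 (averaged TPM) and 310 (UUO replicate 2 from library 1).

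Leaving out 1 replicate also moved these counts by more than 1.5 times. The 1373 genes called in CCD at 3 h became 447 to 781 without any 1 sham replicate or UUO replicate 2 or 4, with the lowest count without sham replicate 2. In cTAL at 3 h, 1173 became 457 to 746 without any 1 sham replicate or UUO replicate 4, again lowest without sham replicate 2. In cTAL at 30 min, 1 became 3 without sham replicate 3 and 2 without UUO replicate 1 or 2. The segment difference at 30 min went from 0 to 639 without UUO replicate 3 and to 1 without UUO replicate 4. At 3 h it went from 124 to between 17 (without UUO replicate 2) and 81, in every fit but that without UUO replicate 1. The CCD time difference went from 184 to between 36 (without sham replicate 2 at 30 min) and 86 without sham replicate 3 or 4 or UUO replicate 1 at 30 min, or sham replicate 2, 3 or 4 or UUO replicate 2 or 4 at 3 h, and to 305 without UUO replicate 3 at 3 h. The cTAL time difference went from 268 to 153 and 134 without sham replicate 2 or 3 at 30 min.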

Other observations

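Some other potassium channel genes also differed by segment in sham. Of 9 tested at 30 min, 5 were called higher and 2 lower in CCD, beside 41.7% and 13.2% of all genes. Kcnt1, a sodium-activated channel, averaged 16.4 ± 6.85 TPM in cTAL and 0.0675 ± 0.0727 TPM in CCD at 30 min (SD, n = 4). Kcnj5, an inward rectifier, averaged 11.8 ± 3.74 TPM in cTAL and 1.09 ± 0.497 TPM in CCD. Kcns3, a modifying subunit of voltage-gated channels, averaged 9.27 ± 2.24 TPM in CCD and 0.205 ± 0.153 TPM in cTAL. Kcnip4, a potassium channel interacting protein, averaged 36.2 ± 6.54 TPM in CCD and 20.7 ± 5.17 TPM in cTAL.

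Kcnq1 and Kcnk1 were high or low in the same replicates of several groups. In CCD UUO at 30 min both were lower in replicates 1 and 2 (28.8 and 31.1 TPM of Kcnq1, 42.9 and 69.1 TPM of Kcnk1) than in replicates 3 and 4 (102 and 83.0 TPM, 135 and 188 TPM). Library 2 of this replicate 2 had the fewest genes at 1 TPM among the 30 min libraries. It held 11.52 TPM of Kcnq1 and 31.61 TPM of Kcnk1, against 50.76 and 106.5 TPM in library 1. In cTAL sham at 3 h both were lowest in replicate 4, at 6.94 and 28.1 TPM. This was noticed in the data and was not tested.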
